A study of Mus musculus with 8 samples.

Results

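The cells described here were the early proximal tubule cells of embryonic mouse kidneys that did or did not carry Trim28 in the nephron lineage. They were selected on measured counts: a cell was kept if Osr2, Cdh6 and Cthrc1 together reached 8 UMIs (unique molecular identifiers, 1 for each captured RNA molecule), if Fbp1 and Slc34a1 stayed under 20, if the cycle genes Top2a, Cenpf, Ube2c and Nusap1 stayed under 20, and if Aadat, Slc7a12, Slc22a13 and Slc7a13 of the straight segment stayed under 6. Of the 6495 cells that could be assigned to a mouse, 711 met these thresholds. They came from 2 Trim28delta/delta mice (Trim28Δ/Δ; mouse 1 with 89 cells and mouse 2 with 137 cells) and 2 Trim28f/f control mice (mouse 3 with 334 cells and mouse 4 with 151 cells). All 4 were males. The sample labels give their stage as E17.5, whereas the study's methods give a later embryonic day for the single-cell kidneys, and the stage was not settled here. In the Trim28Δ/Δ kidneys both floxed Trim28 alleles were deleted by the Six2-EGFP/cre transgene, which is active in nephron progenitors, so that cells of other lineages keep the gene. The labels do not say whether the control mice carried the transgene, and the 2 mice of a genotype were single animals of 1 pooled run.

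The proximal tubule is the first and longest reabsorbing segment of the nephron, and it recovers sugar, phosphate, amino acids and filtered protein from the glomerular filtrate. It arises from the middle part of the S-shaped body under the control of Notch signals and of the transcription factor Hnf4a, and young tubule cells still carry patterning factors before they gain transporters. Trim28 is a co-repressor that zinc-finger proteins bring to transposable elements and imprinted regions, where it recruits histone methyltransferase and heterochromatin proteins.

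Each mouse was recognized by an oligonucleotide tag on its cells, and these 4 sequences, 5′ to 3′, carry the genotype of every value given here.
Mouse 1, Trim28Δ/Δ: cgcgatatggtcgga
Mouse 2, Trim28Δ/Δ: cggattccacatcat
Mouse 3, Trim28f/f: aagatgaggtctgtg
Mouse 4, Trim28f/f: aagctcgttggaaga
The deposited matrix held 32285 genes in 3921239 barcodes, of which 19273 passed a minimum depth and the limits of 200 genes and 10% mitochondrial UMIs, and 9175 of those had no single tag. The shallowest early proximal tubule cell held 6902 UMIs. The early proximal tubule cells had median depths of 17724, 17681, 17617.5 and 19028 UMIs in mice 1 to 4, and their sums per mouse were 1831917, 2918479, 6512452 and 3288042 UMIs. The sums of mouse 1 and mouse 2 were thus the smallest, and their low genes were measured least precisely. Mouse 3 stood apart from the other mice: the glycolysis gene Ldha was highest in it in every cell class examined.

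The genes that led these cells over all other assigned cells included the genes of the thresholds by construction, with Osr2 at 196, 198, 450 and 330 CPM in mice 1 to 4 against 38.5, 39.5, 63.7 and 38.2 CPM elsewhere. CPM is the UMI count scaled to 1 common total in every mouse and class. Cdh6, a cadherin of nascent tubules, was at 481, 474, 438 and 475 CPM, and the secreted protein gene Cthrc1 was at 172, 211, 185 and 137 CPM. Osr2 was lower in both Trim28Δ/Δ mice than in both controls, whereas Cdh6 and Cthrc1 overlapped between genotypes. Since the sum of these 3 genes chose the cells, these are values only, with no test. Genes that the thresholds did not use also led. Car3, Cryab and C4bp ranked highest among these. Car3 and C4bp led mainly through the Trim28Δ/Δ mice, at 89.5 and 76.8 against 3.84 and 9.73 CPM and at 90.6 and 68.5 against 4.61 and 9.43 CPM. Cryab was uneven, at 515, 213, 80.6 and 380 CPM in mice 1 to 4. Markers of the loop of Henle and distal tubule summed to 1549, 729, 558 and 951 CPM in the early cells of these mice. Their part in the Cryab values was not tested. The Notch ligand Jag1 ranked lower, at 188, 132, 199 and 135 CPM against 55.0 to 77.0 CPM in the other cells. It was at 164, 112, 217 and 127 CPM in the cycling early tubule cells, which reached 8 early UMIs but also 20 UMIs of the cell cycle genes, and the ranges of both classes overlapped. The retinoic acid synthesis gene Aldh1a2 had a mean of 368 CPM in these cells and 132 CPM elsewhere, with 366, 346, 290 and 216 CPM in the cycling cells, and the ephrin receptor gene Epha7 had means of 136 and 31.8 CPM, with 86.5 to 113 CPM in the cycling cells. Hnf4a, the marker of the proximal fate, was at 44.2, 59.3, 59.1 and 70.9 CPM, below the 131 to 145 CPM of the later proximal tubule cells, which reached 20 Fbp1 and Slc34a1 UMIs or 6 UMIs of the straight segment genes. The endothelial cells had 5.55 to 9.81 CPM of Hnf4a, and all other assigned cells together, later proximal tubule cells included, had 48.3, 51.7, 30.6 and 30.6 CPM. In mouse 1 the early cells were thus below its other cells, so that Hnf4a alone does not set these cells apart, and the name early proximal tubule stands for the rule that chose them.

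The thresholds cut through a continuum. At the lower edge, 132 cells had 8 or 9 UMIs of Osr2, Cdh6 and Cthrc1, and 154 further cells with 6 or 7 UMIs stayed just outside. At the upper edge, 5 cells had 18 or 19 UMIs of Fbp1 and Slc34a1 and 4 had 20 or 21. For the cycle genes 6 cells lay just inside and 9 just outside, and for the straight segment genes 34 and 18. The members had a median of 15 early UMIs, with a highest value of 121.

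Within the early proximal tubule cells, other genes differed between cells with few and with more Fbp1 and Slc34a1 UMIs. The Wnt ligand gene Wnt4, which drives the first epithelial step of the nephron, was at 283, 260, 414 and 422 CPM in mice 1 to 4 in cells with none of these UMIs. In cells with 1 to 4 of them Wnt4 was at 105, 126, 229 and 257 CPM, and in cells with 5 to 19 at 18.7, 22.0, 26.3 and 21.01 CPM. Both Trim28Δ/Δ mice were below both controls in the first 2 of these bins, and in the last bin the genotypes overlapped. Lrp2, which encodes the endocytic receptor megalin, was at 65.6, 109, 147 and 198 CPM in the first bin, at 92.1, 127, 192 and 146 CPM in the second and at 331, 608, 644 and 784 CPM in the last. In mouse 4 the second bin was below the first, and in the other 3 mice the level rose from bin to bin. Mouse 1 was lowest for Lrp2 in all 3 bins. Hnf4a stayed between 32.7 and 38.8 CPM in cells with none of these UMIs and lay between 119 and 144 CPM in the last bin. The last bin held 8, 19, 53 and 33 cells in mice 1 to 4, so that the values of mouse 1 there rest on very few cells. The selection also used Fbp1 and Slc34a1. In plain CPM, Slc34a1 was lower and Fbp1 higher in both Trim28Δ/Δ mice than in both controls. A bin therefore need not hold the same stage in both genotypes, and these values are a description only.

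**Figure D1:**
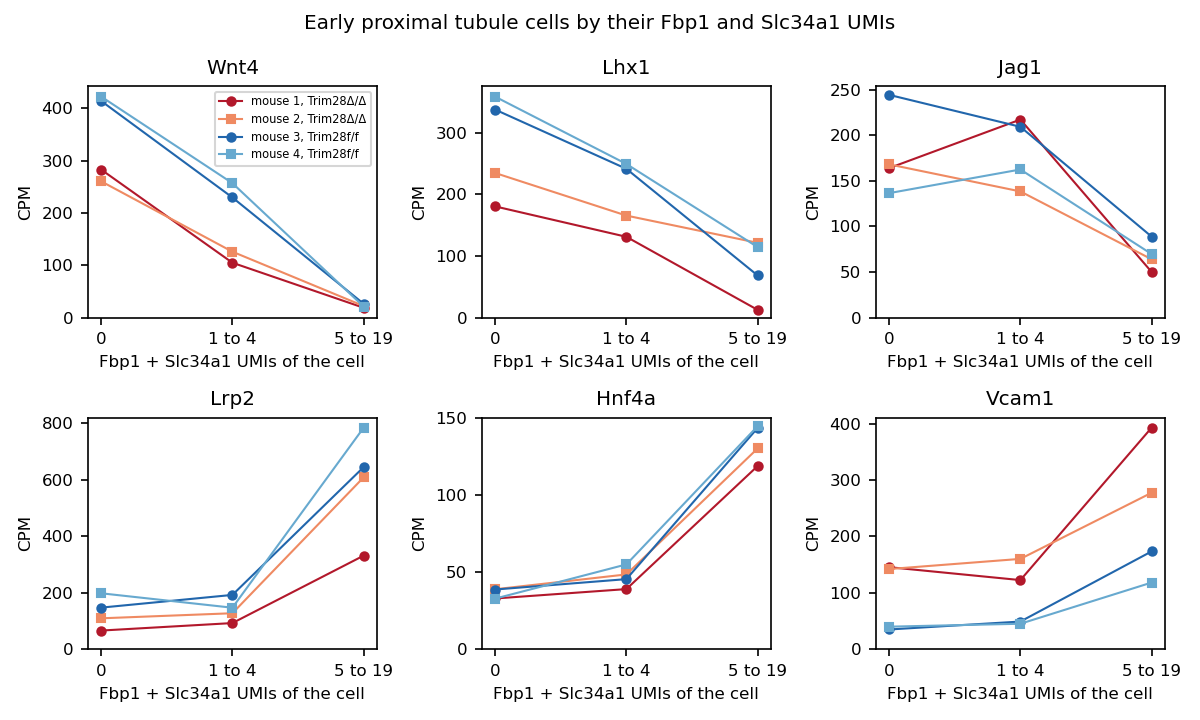
Level in CPM (y axis) of 6 genes in the early proximal tubule cells, grouped by their Fbp1 and Slc34a1 UMIs (x axis), with 1 line for each mouse. Wnt4, Lhx1 and Jag1 end lower and Lrp2, Hnf4a and Vcam1 end higher in cells with 5 to 19 of these UMIs than in cells with none, in all 4 mice, and the Vcam1 points of both Trim28Δ/Δ mice lie above both controls in every bin.

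The first comparison asked whether the share of cells that met the thresholds differed between genotypes among the assigned cells of each mouse. Early proximal tubule cells made up 7.62% of the assigned cells in mouse 1 (exact binomial 95% interval 6.16 to 9.29), 10.6% in mouse 2 (8.998 to 12.4), 13.4% in mouse 3 (12.1 to 14.8) and 9.75% in mouse 4 (8.32 to 11.3). These intervals cover counting error only. The genotypes overlapped, since mouse 2 was above mouse 4. The means were 9.12% in Trim28Δ/Δ and 11.6% in Trim28f/f kidneys, and the two-sided exact permutation test over mice gave p = 0.667 (n = 2 and 2, for which the smallest possible p is 0.333). Without mouse 3 the difference shrank from -2.46 to -0.63 percentage points. A share of cells in 1 pool also depends on the other cell types recovered from each mouse. Osr2, Fbp1 and Slc34a1, which the selection used, also differed between genotypes in the kept cells. The test therefore compares cells that passed the thresholds, which need not be the same stage in both genotypes, and not cell numbers of a kidney.

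The cells that the thresholds set aside are given as a description, with no test, since the selection used these counts. The sum of Osr2, Cdh6 and Cthrc1 reached 8 in 18.6%, 24.0%, 23.7% and 18.02% of the cells of mice 1 to 4, with no separation of the genotypes. Of these cells 41.0% and 44.3% stayed early proximal tubule cells in mice 1 and 2, against 56.7% and 54.1% in mice 3 and 4. Later proximal tubule cells were 19.2% and 18.2% of all cells in the Trim28Δ/Δ mice and 7.39% and 9.56% in the controls. Cycling early tubule cells, with 20 or more UMIs of the cycle genes, were 5.14%, 6.13%, 6.67% and 4.59%.

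**Figure D2:**
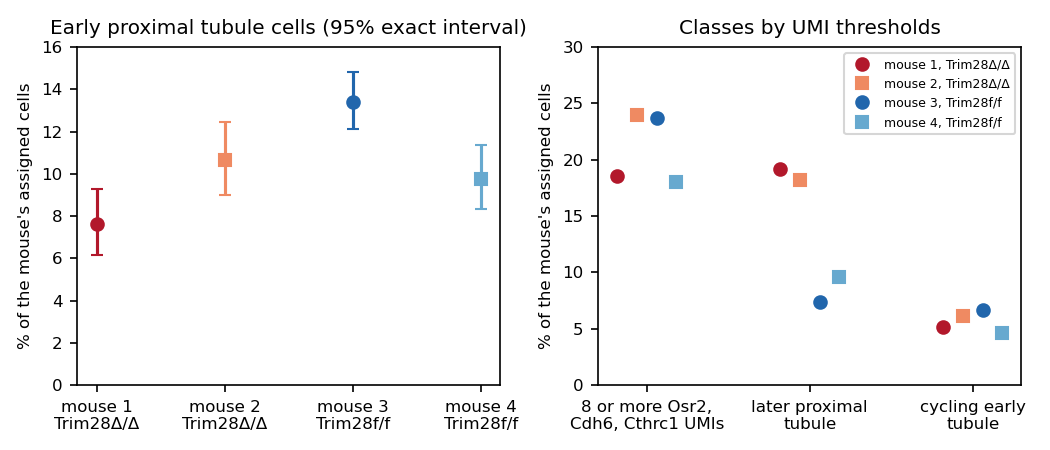
Left, share of early proximal tubule cells among the assigned cells of each mouse, in percent, with exact 95% binomial intervals. Right, share of cells that reached 8 early UMIs, of later proximal tubule cells and of cycling early tubule cells for the same mice: the first and the last overlap between genotypes, and the later cells are at 19.2% and 18.2% in Trim28Δ/Δ against 7.39% and 9.56% in Trim28f/f mice.

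The second comparison asked which genes differed between genotypes within these cells, in sums of UMIs per mouse. From here on CPM values in tests are scaled by TMM, edgeR's trimmed mean of library ratios, and fold changes are log2 of Trim28Δ/Δ over Trim28f/f. Their standard errors (SE) were worked back from the test, as the absolute log2 change over the square root of its F statistic. Of 11892 genes tested, 23 were higher in Trim28Δ/Δ cells (0.193% of the genes tested) and 1 was lower (0.00841%) at an adjusted p under 0.05 in the quasi-likelihood test of edgeR, adjusted by Benjamini-Hochberg. As a background for the gene groups, 18.8% of all genes tested had both Trim28Δ/Δ mice above both controls, and 18.5% had both below.

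Trim28 itself was the gene that fell. It was at 29.9 and 31.0 CPM in the Trim28Δ/Δ mice and at 117 and 123 CPM in the controls (log2 change -1.97, SE 0.16, edgeR adjusted p = 0.00433). The counts are 3′ tags, and by the study's methods the last exons of the gene stay in place after the deletion, so that the counts show the transcript level and not the deletion itself. At least 1 Trim28 UMI was found in 43.8% and 43.1% of the Trim28Δ/Δ cells and in 82.9% and 88.1% of the control cells, and in 59.8% to 72.6% of endothelial cells over the 4 mice. In endothelial cells, which do not descend from nephron progenitors, Trim28 was at 86.0, 91.3, 75.8 and 104 plain CPM (without TMM scaling), and in stromal cells at 118, 108, 103 and 122 CPM. The genotypes overlapped in both of these classes. Of the 22 genes of Trim28 and its heterochromatin partners that were tested, Trim28 alone passed the test, and the list's median log2 change was -0.01.

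Meg3 and Rian, maternally expressed long non-coding RNAs of the imprinted Dlk1-Dio3 region on chromosome 12, were both higher in Trim28Δ/Δ cells. Meg3 (ENSMUSG00000021268, GRCm38 chr12:109541001-109571726) was at 668 and 537 CPM in the Trim28Δ/Δ mice and at 69.9 and 41.4 CPM in the controls (log2 change 3.42, SE 0.25, edgeR adjusted p = 0.00368). Rian (ENSMUSG00000097451, chr12:109603940-109661716) was at 100.1 and 89.0 CPM against 11.4 and 10.04 CPM (log2 change 3.12, SE 0.19, edgeR adjusted p = 0.00105). The genotypes did not overlap for either gene. Mirg, the third long RNA of the region, had few counts, at 5.44 and 5.45 CPM against 1.11 and 0.912 CPM, and did not pass the test (edgeR adjusted p = 0.200).

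Meg3 was spread over most of the Trim28Δ/Δ cells. A UMI of it was found in 77.5% and 72.3% of the early proximal tubule cells of mice 1 and 2, and in 28.7% and 25.2% of those of mice 3 and 4. Thinned to the minimum depth in every cell, these shares were 66.3%, 60.6%, 15.9% and 12.6%. In endothelial cells, whose median depths ran from 11733 to 13426 UMIs, the thinned shares were 20.1%, 20.2%, 21.2% and 26.4%. Endothelial cells express Meg3 themselves, with up to 87 UMIs in 1 cell, and give no background for it. Single control tubule cells held up to 60 UMIs in mouse 3 and 29 in mouse 4. In plain CPM, Meg3 was at 80.1, 49.6, 126 and 133 in endothelial cells and at 332, 371, 305 and 191 in stromal cells of mice 1 to 4. The early proximal tubule cells had thus the highest Meg3 level among these classes in the Trim28Δ/Δ mice, whereas stromal cells had the highest in the controls.

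Meg3 and Rian were the only imprinted genes past the test. Of 35 imprinted genes tested, of 47 listed, 2 rose and none fell by the test, and the median log2 change was 0.01, close to the 0.00173 of all genes. H19, the maternally expressed RNA beside Igf2, was at 451 and 498 CPM in the Trim28Δ/Δ mice and at 734 and 602 CPM in the controls (edgeR adjusted p = 0.383). Gnas, which encodes the stimulatory G protein subunit, was at 847, 893, 779 and 787 CPM (edgeR adjusted p = 0.788), and Kcnq1ot1 was at 326, 393, 340 and 484 CPM.

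The start of Meg3 is shown because Trim28 reaches imprinted regions through Zfp57, whose known recognition core is TGCCGC. The RefSeq window (GRCm38.p6, plus strand) runs from 250 bases before to 50 bases after the start, and capitals mark a match to TGCCGC on either strand.
Meg3, chr12:109540746-109541045: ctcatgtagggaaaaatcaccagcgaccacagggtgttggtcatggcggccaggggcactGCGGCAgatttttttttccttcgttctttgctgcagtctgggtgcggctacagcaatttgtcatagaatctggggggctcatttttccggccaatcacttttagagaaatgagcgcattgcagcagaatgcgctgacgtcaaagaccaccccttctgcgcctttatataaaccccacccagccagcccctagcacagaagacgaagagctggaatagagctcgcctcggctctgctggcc
The core occurred 1 time in this window, as its reverse complement, and in 11.6% of all 32851 promoter windows of this length. Windows were found for 15 of the 24 genes past the test, 17 windows in all, and 2 of these, those of Meg3 and Trim28, held the core. A further Meg3 window, from a later start, held none. The start of Gm11100, the gene with the smallest adjusted p, is shown for comparison, and it held no match.
Gm11100, chr14:13918194-13918493: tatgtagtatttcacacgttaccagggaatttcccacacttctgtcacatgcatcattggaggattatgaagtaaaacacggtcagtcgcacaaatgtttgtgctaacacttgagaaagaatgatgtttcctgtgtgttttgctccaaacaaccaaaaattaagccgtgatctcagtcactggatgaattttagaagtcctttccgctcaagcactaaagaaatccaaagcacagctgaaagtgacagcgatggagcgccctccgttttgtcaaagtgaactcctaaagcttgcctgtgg
A match is a description of letters and says nothing on binding in these cells.

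Gm11100 (ENSMUSG00000079357, processed transcript, GRCm38 chr14:13918444-13949558) had the smallest adjusted p of all genes tested. It was at 319 and 335 CPM in the Trim28Δ/Δ mice and at 6.01 and 6.08 CPM in the controls (log2 change 5.75, SE 0.17, edgeR adjusted p = 1.33e-05). At least 1 UMI was found in 82.0% and 79.6% of the Trim28Δ/Δ cells and in 11.1% and 9.27% of the control cells. Thinned to the minimum depth these shares were 73.0%, 67.9%, 6.29% and 3.31%. Endothelial cells of the same mice had thinned shares of 4.73%, 9.68%, 3.03% and 2.30%. The control tubule cells lay within this range of all 4 mice, but above the endothelial cells of the same control mice. In mouse 4, 1 of them held 7 UMIs. At this level they are not read as expressing the gene.

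Sh3bgr, which encodes an SH3-domain-binding protein, was at 84.3 and 87.9 CPM against 7.75 and 8.52 CPM (log2 change 3.41, SE 0.19, edgeR adjusted p = 0.000842). It was not evenly spread over the bins of Fbp1 and Slc34a1 UMIs. In cells with none it was at 168 and 212 plain CPM in the Trim28Δ/Δ mice. In cells with 5 to 19 it was at 31.2 and 8.81 plain CPM in these mice. The controls had at most 15.8 CPM in any bin. Its position was chr16:96200450-96228935 (GRCm38). The non-coding transcript Gm49708 on the same chromosome (chr16:90341595-90349642) was at 386 and 402 CPM against 26.7 and 48.4 CPM (log2 change 3.42, SE 0.26, edgeR adjusted p = 0.00388).

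The protein-coding genes that rose from a low level included enzymes and secreted proteins. Akr1c18, a hydroxysteroid dehydrogenase that breaks down progesterone, was at 34.3 and 50.1 CPM against 3.64 and 3.04 CPM (log2 change 3.63, SE 0.30, edgeR adjusted p = 0.00533). C4bp, a complement regulator, was at 90.3 and 68.2 CPM against 4.74 and 9.43 CPM, and the carbonic anhydrase gene Car3 was at 89.2 and 76.4 CPM against 3.95 and 9.73 CPM. Car3 was patchy: 19.1% and 13.9% of the Trim28Δ/Δ cells, 3.29% and 4.64% of the control cells and up to 1.21% of endothelial cells had a UMI of it, and 1 cell of mouse 2 held 82. In cells with no Fbp1 or Slc34a1 UMI, with 1 to 4 and with 5 to 19 it was at 291, 17.7 and 6.24 CPM in mouse 1 and at 75.7, 94.6 and 2.20 CPM in mouse 2, with 8 and 19 cells in the last bin.

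Other genes rose from a higher level in the control cells. Lxn, a carboxypeptidase inhibitor, was at 95.2 and 84.5 CPM against 27.3 and 27.4 CPM (log2 change 1.71, SE 0.16, edgeR adjusted p = 0.00933). Resf1, which acts with the methyltransferase Setdb1 in silencing endogenous retroviruses, was at 198 and 229 CPM against 64.7 and 77.3 CPM (log2 change 1.60, SE 0.16, edgeR adjusted p = 0.0101). Setdb1 itself was at 47.9, 49.4, 47.1 and 36.5 CPM (edgeR adjusted p = 0.854). In endothelial cells Resf1 was at 101, 121, 118 and 121 plain CPM in mice 1 to 4, with no order by genotype.

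Vcam1, an adhesion molecule that marks injured and poorly repaired proximal tubule cells, also rose. It was at 152 and 174 CPM against 67.03 and 60.8 CPM (log2 change 1.35, SE 0.15, edgeR adjusted p = 0.0195), and the call was lost without mouse 2 (edgeR adjusted p = 0.0930). Vcam1 was higher in both Trim28Δ/Δ mice in each of the 3 bins of Fbp1 and Slc34a1. In the last bin, with 8 cells of mouse 1, it was at 393 and 278 CPM against 174 and 118 CPM. The bins were cut on genes of the selection and need not match the genotypes in stage. Of 14 genes of tubule injury and repair tested, Vcam1 was the only one past the test. The list's median log2 change was 0.04, and it was -0.12 without mouse 1 and -0.08 without mouse 3. Spp1 (osteopontin) was at 315, 146, 74.9 and 246 CPM in mice 1 to 4, Prom1 at 56.0, 61.0, 55.0 and 62.0 CPM, and Clu (clusterin) at 302, 339, 292 and 328 CPM, each with overlapping genotypes. Mice 1 and 4, highest for Spp1, were also highest for the loop of Henle markers, whose part in the Spp1 values was not tested.

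The remaining 10 genes past the test, of which 9 are named here after their values were seen, were mostly low. Gm47101 was at 20.7 and 20.8 CPM against 1.11 and 1.52 CPM. The homeobox gene Six3, which lies beside Six2, had 38 and 30 UMIs in mice 1 and 2 and 2 and 2 in mice 3 and 4, a ratio of 35.1 per UMI sequenced with a counting interval of 13.1 to 132. This interval pools both mice of a genotype and takes each UMI as independent, so that it holds no spread between mice or cells. The intervals that follow were made the same way. The non-coding Gm26640 had a ratio of 75.3 (20.1 to 634) on 2 control UMIs, and the transcription factor gene Tcfl5 one of 33.0 (10.6 to 166) on 3 control UMIs. With 1 mouse left out, the log2 change ran from 4.50 to 5.51 for Six3, from 4.54 to 8.81 for Gm26640 and from 3.95 to 5.71 for Tcfl5. Gm47547 and 3222401L13Rik were at 23.9 to 28.0 and 15.2 to 15.3 CPM in the Trim28Δ/Δ mice and at 0.474 to 2.74 and 1.52 to 1.58 CPM in the controls. Ly6e, Serf1, Cldn7 (claudin 7) and Fabp3 (a fatty acid binding protein) were well expressed in all mice and had log2 changes of 1.17, 0.97, 1.06 and 1.22. Of these 9 genes, Gm26640 and Gm47547 lost the call without mouse 2 (edgeR adjusted p = 0.0506 and 0.0524), 3222401L13Rik, Ly6e, Serf1, Six3, Cldn7 and Fabp3 lost it in 2 of the 4 fits that left out a mouse, and Tcfl5 in 3.

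**Figure D3:**
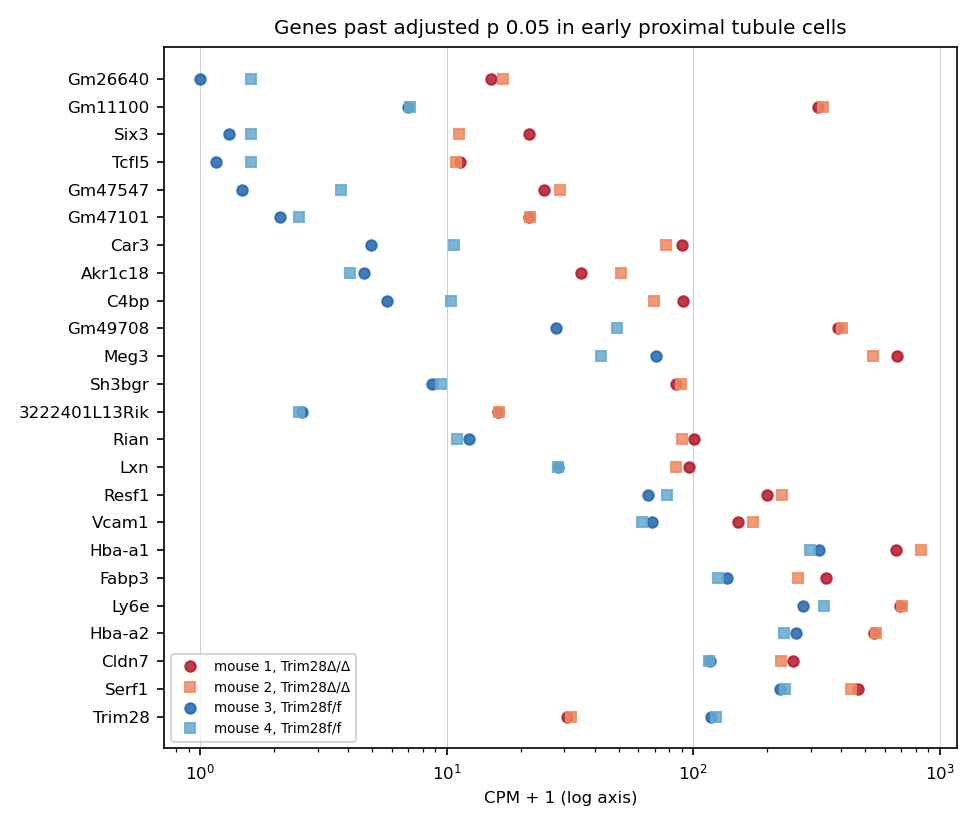
CPM + 1 (log axis) of the 24 genes past the test in the early proximal tubule cells, with 1 point for each mouse and the largest log2 change at the top. In 23 genes both Trim28Δ/Δ points lie to the right of both controls, and in Trim28 both lie to the left.

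The haemoglobin genes Hba-a1 and Hba-a2 were also past the test, at 664 and 840 against 323 and 297 CPM and at 541 and 551 against 260 and 233 CPM, and they belong to red blood cells. They are near-identical copies, between which 3′ reads can be split. The erythroid list had medians of 17, 17, 16 and 16 UMIs a cell in mice 1 to 4, and in RNA free in the pool it made up 32214 CPM. The 6 erythroid markers together were at 3348 and 4281 CPM in the Trim28Δ/Δ mice and at 1947 and 1608 CPM in the controls. The cells with 100 or more of these UMIs numbered 2, 3, 5 and 3 and held 77.1%, 80.9%, 56.8% and 53.1% of them. Without these cells the sums were 796, 836, 858 and 768 CPM, and the genotypes overlapped. With cells assigned by HTODemux the log2 changes of Hba-a1 and Hba-a2 were -0.05 and -0.09. Hba-a1 also lost the call without mouse 2, and Hba-a2 without mouse 1 or mouse 2.

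Markers of other kidney cells were found in these cells, most of all those of the loop of Henle. The loop of Henle and distal tubule list summed to 1549, 729, 558 and 951 plain CPM in mice 1 to 4, against 1433, 1463, 1477 and 1267 plain CPM in the other cells and 1653 CPM in free RNA. In mouse 1 this was above the sum of its early proximal tubule markers, 894 plain CPM, and 32.6% of its early cells held 10 or more of these UMIs, against 20.5% to 23.7% in the other mice. Slc12a1, the loop cotransporter, was at 718, 40.9, 68.1 and 378 CPM. At least 10 UMIs of Slc12a1 and Umod were held by 7, 1, 3 and 7 of the early proximal tubule cells, and the largest count in 1 cell was 503. The immune list summed to 27.8 and 21.2 CPM in the Trim28Δ/Δ mice and to 65.6 and 135 CPM in the controls, with no marker at 0. Lyz2, lysozyme of macrophages, was at 2.72 and 1.02 against 27.8 and 69.7 CPM (edgeR adjusted p = 0.0523), and 1 cell in each control mouse held 10 or more immune UMIs. The podocyte list summed to 81.9 and 83.3 plain CPM in the Trim28Δ/Δ mice and to 125 and 126 plain CPM in the controls, with no marker at 0. Of its 7 markers 6 were below both controls (85.7%, against 18.5% of all genes tested), and none passed the test (median log2 change -0.74). Stromal and endothelial lists ran from 62.4 to 80.8 and from 66.1 to 277 CPM, and the nephron progenitor list, with 2 markers at 0 in mouse 1, from 50.7 to 55.9 CPM. The ureteric bud and collecting duct list summed to 200.3 and 188 CPM in the Trim28Δ/Δ mice and to 126 and 163 CPM in the controls, with no marker at 0 and a median log2 change of 0.49 over the 5 markers tested. At least 10 of its UMIs were held by 12.4% and 6.57% of the Trim28Δ/Δ cells and by 3.89% and 4.64% of the control cells. The part of these markers in the genotype differences was not tested beyond the following fit. Without the 202 cells that held 10 or more UMIs of another cell type's list other than haemoglobin, 51 of 10743 genes passed the test, 47 of them higher, and all 24 genes named above were among the 51.

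The deletion was also compared across the genes that pattern the early nephron. The 16 nephron patterning transcription factors tested other than Osr2, which the selection used, had a median log2 change of -0.10. None of them passed the edgeR test with all mice. With Osr2 counted and all 4 mice kept, 2 passed with DESeq2, 4 without the filter on low counts and 1 with tags at 90%. Those calls can hold Osr2 itself and are no test of it. Further calls in the fit without mouse 4, which leaves a single control, are not counted here. The median with Osr2 was also -0.10, and 0.06 without mouse 3. Of the 16 other than Osr2, 4 were below and 4 above both controls in both Trim28Δ/Δ mice, against 18.5% and 18.8% of all genes tested. Lhx1, needed for the S-shaped body, was at 133 and 170 CPM in the Trim28Δ/Δ mice and at 244 and 241 CPM in the controls (log2 change -0.67, SE 0.15, edgeR adjusted p = 0.243). Wt1, a podocyte and progenitor factor, was at 45.7 and 39.2 against 130 and 82.1 CPM (edgeR adjusted p = 0.112). The podocyte markers were lower in the same mice, at 81.9 and 83.3 against 125 and 126 plain CPM, and their part in the Wt1 values was not tested. Pou3f3, a factor of the loop and distal segments, was at 99.5 and 89.99 against 56.4 and 63.0 CPM (edgeR adjusted p = 0.256). It is also 1 of the 7 loop of Henle and distal tubule markers. Of these, 3 were above both controls (42.9%, against 18.8% of all genes tested) and none below, with a median log2 change of 0.67. Without the 202 cells with other types' markers (haemoglobin spared), a choice made after seeing the data, that median was -0.00066 and the log2 change of Pou3f3 was 0.91 (edgeR adjusted p = 0.379). Pax8 was at 141, 161, 174 and 150 CPM. Of these 4 genes Lhx1, Wt1 and Pou3f3 separated the genotypes and Pax8 did not.

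Among 23 genes of the Wnt pathway none passed the edgeR test with all mice, against 2 with DESeq2 and 4 without the filter on low counts. In cells with Fbp1 and Slc34a1 under 10 there were 2, and without the 202 cells with other types' markers (haemoglobin spared) 1. These fits kept all 4 mice, and further Wnt calls in the fit without mouse 4 are not counted here. The median log2 change was -0.01, and it was 0.04 without mouse 3 and -0.21 without those 202 cells. Wnt4 was the nearest of the well expressed ones, at 144 and 134 CPM against 249 and 238 CPM (log2 change -0.81, SE 0.13, edgeR adjusted p = 0.0788), and over the alternatives its adjusted p ran from 4.01e-05 without the filter to 0.952 in the 40 cells left without any other type's markers. Rspo1, an enhancer of Wnt signals, was at 25.0 and 20.8 against 48.5 and 49.0 CPM (edgeR adjusted p = 0.102). Wnt11 went the other way, at 13.6 and 10.6 CPM against 1.58 and 1.22 CPM (log2 change 3.02, SE 0.43, edgeR adjusted p = 0.0588). Wnt11 is also 1 of the 7 ureteric bud and collecting duct markers, whose sum was higher in the same mice, at 200.3 and 188 against 126 and 163 plain CPM. Without the 202 cells with other types' markers (haemoglobin spared), a choice made after seeing the data, its log2 change was 2.68 (edgeR adjusted p = 0.229). Of 19 Notch pathway genes none passed with all mice, against 1 without the filter and 1 without mouse 4, with a median of -0.11, which was 0.03 without mouse 3. Jag1 was at 188, 132, 205 and 135 CPM, Notch1 at 88.7, 94.8, 85.7 and 86.4 CPM, and the target gene Hes1 at 129, 131, 142 and 79.99 CPM. Jag1 and Hes1 overlapped between genotypes, and Notch1 was higher in both Trim28Δ/Δ mice by little (edgeR adjusted p = 0.921).

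Genes of proximal tubule function were mostly at a low level in these cells, and none passed the test with all mice. With all 4 mice but without the filter on low counts, 4 transporters, 3 endocytosis genes, 1 transcription factor and 1 gene of gluconeogenesis and fructose use passed. The transporters counted there include Slc34a1 and the last list Fbp1, which the selection used. Calls of these lists in the fit without mouse 4 are not counted here. Of 11 proximal tubule transcription factors, 4 were lower in both Trim28Δ/Δ mice and none higher, against 18.5% and 18.8% of all genes tested. Their median log2 change was -0.28, which was -0.04 without mouse 3. Hnf4a was among these 4 on the TMM scale, whereas its plain CPM overlapped between genotypes. It was at 44.1 and 59.0 against 60.9 and 70.9 CPM (edgeR adjusted p = 0.762). Among 12 genes of receptor-mediated endocytosis the median was -0.19, which was -0.04 without mouse 3. Lrp2 was at 106 and 197 against 260 and 305 CPM (log2 change -0.89, SE 0.26, edgeR adjusted p = 0.444), and its adaptor Dab2 at 88.1 and 118 against 157 and 170 CPM (edgeR adjusted p = 0.340). Both separated the genotypes, with the Trim28Δ/Δ mice below.

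Of 25 proximal tubule transporters tested other than Slc34a1, 8 were lower and 3 higher in both Trim28Δ/Δ mice, against 18.5% and 18.8% of all genes tested. The median log2 change was -0.18. With Slc34a1 counted it was -0.22, which became -0.68 without mouse 2 and 0.0026 without mouse 4. The selection also capped transporters of the straight segment, which are not in this list. Slc34a1, the sodium-phosphate cotransporter, was used by the selection and is given as values only, at 52.8 and 70.2 CPM against 102 and 106 CPM. Slc5a12, a lactate transporter of the first segment, was at 1.09 and 3.07 against 8.38 and 15.8 CPM (edgeR adjusted p = 0.269). The amino acid transporter chaperone Cltrn, counted with the endocytosis genes, was higher, at 218 and 185 against 110 and 142 CPM (edgeR adjusted p = 0.308). The 18 brush border and peptidase genes had a median of 0.01, which was 0.16 without mouse 3 and -0.06 without mouse 2, with Dpp4 at 292, 326, 298 and 303 CPM. The 8 genes of gluconeogenesis and fructose use other than Fbp1, which the selection used, had a median of -0.19. With Fbp1 it was -0.05, and 0.0012 without mouse 3.

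In genes of glycolysis and hypoxia, mouse 3 stood above the other 3 mice. The 20 glycolysis genes had a median log2 change of -0.72, which was -0.01 without mouse 3 and -1.18 without mouse 4, and none passed the test with all mice, against 16 without mouse 4 and 14 without the filter on low counts. Ldha (lactate dehydrogenase) was at 563, 547, 1311 and 564 CPM in mice 1 to 4, and the glucose transporter gene Slc2a1 at 38.6, 38.2, 252 and 45.0 CPM. The 18 hypoxia response genes had a median of -1.10, which was 0.06 without mouse 3 and -1.71 with 17 genes past the test without mouse 4, and 15 passed without the filter, with Vegfa at 69.1, 66.8, 234 and 90.6 CPM. In endothelial cells Ldha was at 506, 537, 1067 and 492 plain CPM, so that mouse 3 was also highest outside the nephron. Fatty acid oxidation (24 genes), oxidative phosphorylation (82 genes) and DNA replication (17 genes) had medians of 0.04, 0.03 and 0.10, with no gene past the test with all mice. Each of these signs turned with 1 mouse left out: fatty acid oxidation was at -0.04 and oxidative phosphorylation at -0.04 without mouse 1, and DNA replication at -0.19 without mouse 3. With all 4 mice but without the filter on low counts, 1 gene of fatty acid oxidation and 2 of oxidative phosphorylation passed. For these 2 lists, calls in the fit without mouse 4 are not counted here. Acadm, the medium-chain acyl-CoA dehydrogenase, was at 261 and 234 against 167 and 186 CPM (edgeR adjusted p = 0.385).

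With all cells, the 77 cytosolic ribosomal protein genes all had log2 changes below 0: the median was -0.13 and 58 of them were lower in both Trim28Δ/Δ mice than in both controls, or 75.3% against the background of 18.5%. None passed the test with all mice, against 6 without mouse 4, where the median was -0.21, and the median was -0.06 without mouse 3. It turned to 0.10 when cells with 10 or more UMIs of any other type's list, haemoglobin included, were left out, which kept 40 cells. The 15 immediate early genes had a median of 0.34, with 9 above both controls (60.0%, against 18.8% of all genes tested). Among these 9 was Jund at 460 and 393 against 318 and 359 CPM (edgeR adjusted p = 0.620). The 11 interferon response genes and the 13 targets of p53 had medians of 0.08 and 0.15, and none passed the test. Both signs rested on single mice: the interferon median was -0.39 without mouse 2, -0.26 without mouse 3 and 0.70 without mouse 4, and that of p53 was 0.42 without mouse 3 and -0.04 without mouse 4.

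**Figure D4:**
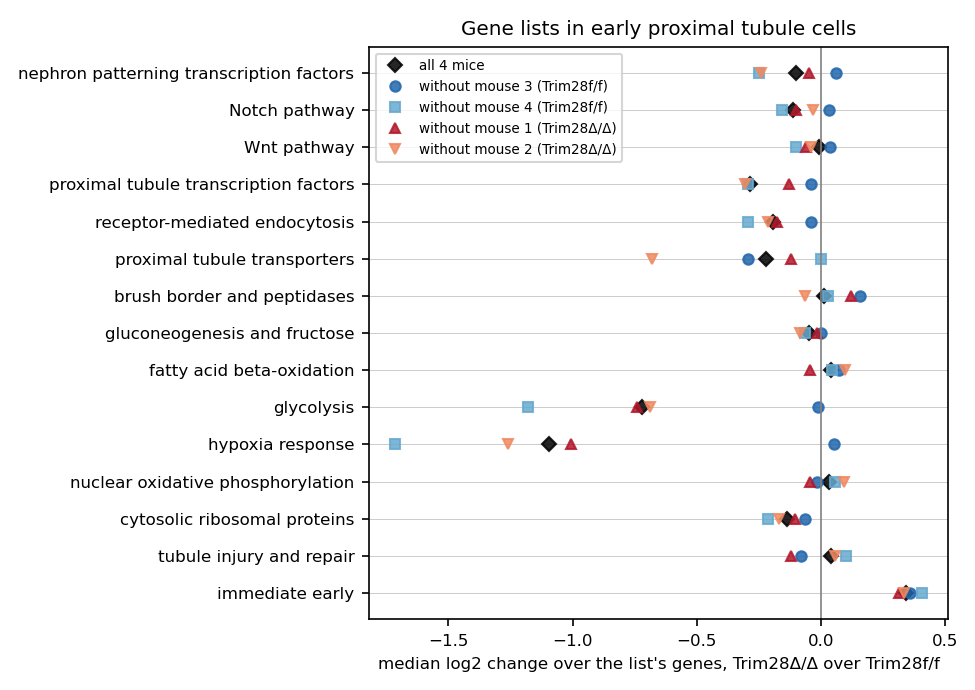
Median log2 change of Trim28Δ/Δ over Trim28f/f (x axis) over the tested genes of 15 lists (y axis) in early proximal tubule cells, with all 4 mice (diamonds) and without each mouse in turn. Glycolysis and hypoxia response lie at -0.72 and -1.10 with all mice and at -0.01 and 0.06 without mouse 3. The transporter, gluconeogenesis and patterning lists hold Slc34a1, Fbp1 and Osr2 of the selection, so that their points are a description only. The proximal tubule transporters move from -0.22 to -0.68 without mouse 2. Without Slc34a1 their median with all mice is -0.18, which is not drawn.

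The third comparison asked where the genotype difference in early proximal tubule cells was not the same as in other cells of the same mice, by the genotype-by-class term of an edgeR fit with the mouse as a block. Against the later proximal tubule cells, 5 of 12932 genes passed (0.0387%). The border between these classes was cut on Fbp1, Slc34a1 and the straight segment genes. In the later cells Fbp1 was at 1331 and 943 against 700 and 729 plain CPM. Slc34a1 was at 748 and 613 against 1030 and 1054 plain CPM there. The later class therefore need not hold the same stage in both genotypes. Gm11100 had a larger log2 change in the early cells (difference 2.24, SE 0.28, edgeR adjusted p = 0.0456). In the later cells it was at 214 and 287 CPM in the Trim28Δ/Δ mice and at 15.9 and 32.8 CPM in the controls. In plain CPM the Trim28Δ/Δ means were 328 in the early and 250 in the later cells, and the control means 5.96 and 24.4, so that most of the difference lay in the controls, at a level in the early cells that is not read as expression. Irx1, a patterning homeobox gene, was at 86.5 and 101 against 69.1 and 51.7 CPM in the early cells and at 31.4 and 30.8 against 59.4 and 54.2 CPM in the later cells (difference 1.48, SE 0.18, edgeR adjusted p = 0.0456). Tshz2, a zinc-finger homeobox gene, was at 175, 201, 173 and 113 CPM in the early and at 35.1, 41.0, 75.7 and 52.9 CPM in the later cells (difference 1.13, SE 0.15, edgeR adjusted p = 0.0476). The genotype difference of Irx1 or Tshz2 passed in neither class alone.

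For the other 2 genes the change was larger in the later cells. Mpv17l, a peroxisomal and mitochondrial protein of the tubule, was at 31.0 and 37.8 against 17.1 and 14.9 CPM in the early cells and at 251 and 225 against 37.9 and 37.6 CPM in the later cells (difference -1.55, SE 0.21, edgeR adjusted p = 0.0493). Prnp, the prion protein gene, was at 74.0, 78.1, 72.6 and 72.4 CPM in the early cells and at 53.5 and 55.2 against 18.7 and 22.6 CPM in the later cells (difference -1.36, SE 0.18, edgeR adjusted p = 0.0476). All 5 calls were lost without the block (edgeR adjusted p from 0.396 to 0.996) and without mouse 4 (from 0.0533 to 0.0841), and all but that of Gm11100 were lost without mouse 3. Akr1c18 was at 191 and 150 against 3.22 and 3.42 CPM in the later cells, but its difference from the early cells did not pass (difference -2.02, SE 0.49, edgeR adjusted p = 0.250). Meg3 had log2 changes of 3.42 in the early and 3.097 in the later cells (difference 0.29, SE 0.17, edgeR adjusted p = 0.721). Vcam1 had 1.35 in both (difference -0.05, SE 0.23, edgeR adjusted p = 0.981), although in the later cells alone it did not pass (edgeR adjusted p = 0.173).

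Against the cycling early tubule cells, which shared the early genes but divided, 0 of 12071 genes passed by edgeR, with 347 at an unadjusted p under 0.05. DESeq2 was not run on this term. The nearest was Igfbp6, an insulin-like growth factor binding protein, at 28.4, 44.5, 50.8 and 55.7 plain CPM in the early cells and at 39.4, 71.8, 10.5 and 14.0 plain CPM in the cycling cells (difference -2.76, SE 0.22, edgeR adjusted p = 0.0560). Sh3bgr was at 249 and 169 against 8.94 and 19.8 CPM in the cycling cells. Its log2 changes were 3.41 in the early and 3.95 in the cycling cells.

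Against nephron progenitors, taken as cells with 10 or more UMIs of Six2, Cited1 and Eya1 and fewer than 8 early UMIs, the Trim28Δ/Δ mice gave 4 cells each and the controls 72 and 165. On so few cells 91 of 12060 genes passed (0.755%), and without each mouse the number ran from 11 to 517. The 5 smallest p-values belonged to Aqp2, the imprinted gene Mest, Cited1, Fxyd4 and Wnt4. Cited1 is 1 of the 3 genes that chose the progenitor class, so that its value is no test. Aqp2, the water channel of the collecting duct, was at 0, 1990, 17.8 and 23.9 plain CPM in the progenitor class and at 27.6 to 57.2 plain CPM in the early proximal tubule cells. Its difference therefore rested on the 4 cells of mouse 2, as did that of Fxyd4 at 25.4, 1042, 17.8 and 22.7 plain CPM, and both turned sign without mouse 2.

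**Figure D5:**
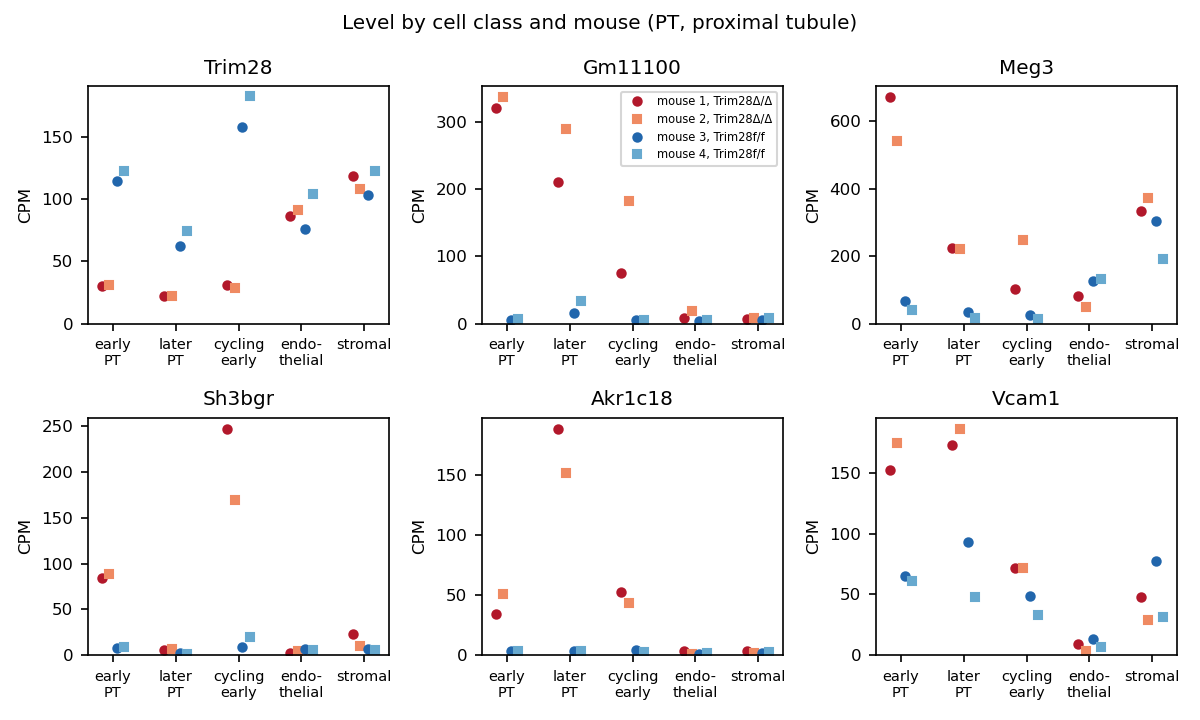
Level in plain CPM (y axis) of 6 genes by cell class (x axis), with 1 point for each mouse. In the 3 tubule classes the Trim28Δ/Δ points lie below the controls for Trim28 and above them for the other 5 genes, with Gm11100 at 320 and 336 against 5.83 and 6.08 CPM in early cells, whereas in endothelial and stromal cells the genotypes overlap for Trim28.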

How the data were processed

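The deposited gene matrix and tag matrix of 1 pool, which held the kidneys of 4 named mice and cells with 4 further tags, hold UMI counts per barcode, which the authors made with Cell Ranger 6.0.0 from a droplet 3′ library and an oligonucleotide tag library, and they are not normalized. For the counts the genome build was not stated in any source read. Gene positions were taken by Ensembl ID from GENCODE M21 (GRCm38). The 6 bulk kidney samples were not analysed here.

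A barcode was assigned to a mouse if its leading tag had 50 or more counts and 80% or more of the counts of 8 tags; genotype came from the tag list deposited with the matrices, which names 4 of these tags. The members and gene lists were chosen with earlier results of these data known. Doublets were removed only through the tags, and no barcode was listed more than 1 time. UMIs were summed per mouse and class and tested with edgeR 4.0.16 in R 4.3.3 (TMM, filterByExpr, quasi-likelihood test, Benjamini-Hochberg threshold 0.05), with 2 mice a genotype in 1 pool, so that p-values measure the spread between these mice only. Class differences had the mouse as a block, and shares had exact binomial intervals and an exact permutation test (scipy 1.17.1). The steps were tested on simulated data. CPM values beside a test are TMM-scaled, and those by class, bin or marker list are plain.

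Named were up to 12 higher and up to 12 lower called genes with the smallest adjusted p (only 1 was called lower), Trim28, genes of the selection, called list members or else the 4 most expressed of a list, and the 5 leading genes of each class difference. Other list members are named after their values were seen. Alternatives were DESeq2 1.42.0 and its size factors, no filter, HTODemux of Seurat 5.3.0, stricter tags, other thresholds, cells with other types' markers left out, and each mouse left out.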

Additional observations from a re-analysis of the deposited data

Results flagged for a closer look

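Genes are given here because the difference between genotypes was not the same in early proximal tubule cells and in another class of the same mice, by the genotype-by-class term of edgeR. Against later proximal tubule cells, the log2 change in early cells minus that in later cells was 2.24 for Gm11100, 1.48 for Irx1, 1.13 for Tshz2, -1.36 for Prnp and -1.55 for Mpv17l. Against nephron progenitors, of which each Trim28Δ/Δ mouse gave 4 cells, it was -5.30 for Aqp2, 2.92 for Mest, 2.92 for Cited1, -4.45 for Fxyd4 and -2.30 for Wnt4. Cited1 was used to choose the progenitors, so that its difference is a description only. For Gm11100 most of the difference from later cells lay in the control levels. The border to the later cells was cut on Fbp1 and Slc34a1, which differed between genotypes, so that the classes need not match in stage.

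Early proximal tubule cells were also found among cells whose tag names no mouse. Of 3603 such cells 245 met the thresholds, or 6.80%, with 4.69%, 6.06%, 9.80% and 7.04% over the 4 unnamed tags. A further 770 cells met the thresholds but had no single tag. The cells of both groups have no genotype and entered no comparison.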

How the results depend on the processing

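The mean share of early proximal tubule cells stayed lower in Trim28Δ/Δ mice under every alternative run, by 0.63 to 4.29 percentage points of all assigned cells. Among cells that reached the early, Fbp1 and Slc34a1, straight segment or progenitor thresholds, the mean was lower by 9.47 points. With these cells as the total, mouse 2 at 29.4% was above mouse 4 at 28.0%. No exact test could pass with 2 mice a genotype. The 24 genes that differed became 69 with DESeq2, 401 without the filter, 39 with tags at 90%, 40 with thresholds scaled to depth, 24 to 346 with 1 mouse left out (346 without mouse 4), 2 without cells holding any other type's markers (40 cells left, 2420 genes tested) and 51 when that choice spared haemoglobin, which was chosen after seeing the data. All 24 remained among the 69, 401, 346 and 51, and 14 without mouse 2. Against later cells, the 5 genes became 248 without the filter, 0 without the mouse block and 3 to 68 with 1 mouse left out. Against cycling cells, 0 genes became 3 and 0 to 67, and against progenitors 91 became 3 without the block and 11 to 517 with 1 mouse left out (517 without mouse 1). The cause was not tested.

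Signs turned as follows. Hba-a2 went to -0.092 with HTODemux and -0.15 without cells holding any other type's markers, and Hba-a1 to -0.048 and -0.13. Under the latter choice Cdh6 was at -0.013, Hnf4a at 0.35 and Lhx1 at 0.019. Prnp in early cells was at -0.015 with HTODemux, -0.024 with Fbp1 and Slc34a1 under 10 and -0.086 with scaled thresholds. With 1 mouse left out, Cthrc1 ran from -0.0064 to 0.48, Aqp2 against progenitors from -6.53 to 8.84 and Fxyd4 from -5.67 to 0.46. Cdh6 and Cthrc1 were used by the selection, so that their values are a description only. Of the list medians, 77 moved beyond the replicate spread over all alternatives and 323 did not. With 1 mouse left out, several of the list medians changed sign. No paired analysis was possible because the 4 mice carry no shared replicate numbers across genotypes.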
